A study of Solanum tuberosum with 6 samples.

Results

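The leaves of KY140, a potato cultivar that the study describes as cold-sensitive, were compared between plants kept at 25°C (KY140, 3 libraries) and plants held at −4°C for 12 h (cold stress, CS; CS-KY140, 3 libraries). These are 6 of the 18 libraries of the deposited count table, chosen by their column names, and every test between the temperatures was fitted on these 6 alone. Both groups were wild-type, virus-free tissue-culture seedlings grown on MS medium for 18 days, so the plants stand for young shoots in culture and not for field-grown leaves. The sample titles and the study's methods give −4°C for the cold group, while the treatment field of its label gives 12°C. The methods state 3 biological replicates, but each group is a single record in the labels, so the p-values measure only the spread between the 3 libraries of a group. Each library held 11712230 to 14971945 counts, whole numbers of reads per gene.

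Cold changes which messenger RNAs a leaf makes. In potato and in other plants, transcription factors of the CBF family switch on a large set of cold-response genes, while transcripts for photosynthesis and growth often decline. Because sequencing distributes a fixed number of reads over all transcripts, a gene that takes a larger share of the reads must leave less for the others. The share of reads per gene therefore describes the composition of the leaf's messenger RNA, not its amount per cell, and fewer cells of a type and less RNA per cell cannot be told apart. Cultivated potato is tetraploid, and most identifiers name a chromosome and carry a digit, read here as its copy (Soltu.Atl.03_3G000950 is a gene on chromosome 3, copy 3). The digit runs from 0 to 4, and what 0 stands for is not given in the sources used here. The copies are those of the genome that the identifiers were made for, and whether KY140 carries the same ones was not tested. Where copies are almost the same in sequence, their reads can be divided between them, which leaves each copy's own value uncertain. RefSeq's gene table matched 0 of the identifiers, so functions are given for only the 12 genes that the study names.

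The total share held by the most abundant genes hardly moved in the cold. The 100 most abundant genes of each library held 17.1%, 15.4% and 15.9% of the counts in KY140 replicates 1, 2 and 3, and 16.9%, 17.7% and 14.3% in CS-KY140 replicates 1, 2 and 3. The groups overlapped, with means of 16.1% ± 0.865 (SD, n = 3) and 16.3% ± 1.79 (SD, n = 3), and the exact two-sided permutation test gave p = 1.0. The smallest p that 3 libraries against 3 can give is 0.1. The sign of the difference rests on single libraries, since it was 0.186 points with all 6, −0.196 without KY140 replicate 2, −0.109 and −0.525 without CS-KY140 replicates 1 and 2, and 1.19 without CS-KY140 replicate 3. The 1000 most abundant genes held 36.2 to 39.2% untreated and 35.7 to 38.9% cold (exact permutation p = 1.0). The number of genes that together held 50% of the counts was 1964, 2445 and 2347 untreated and 2272, 2156 and 2469 cold (exact permutation p = 0.8).

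At the very top of the ranking the cold means were lower, within the spread of the libraries. The 10 most abundant genes held 7.69%, 6.80% and 7.22% untreated and 6.94%, 6.78% and 5.20% cold, with a difference of −0.932 percentage points (exact permutation p = 0.2). The most abundant gene was Soltu.Atl.02_2G006340 in all 6 libraries. Its share was 1.79%, 1.23% and 1.52% untreated and 1.48%, 1.04% and 0.770% cold. CS-KY140 replicate 3 was the lowest and KY140 replicate 1 the highest, and the groups overlapped. In the edgeR fit this gene had a log2FC of −0.37 (standard error 0.31, adjusted p = 0.802).

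**Figure D1:**
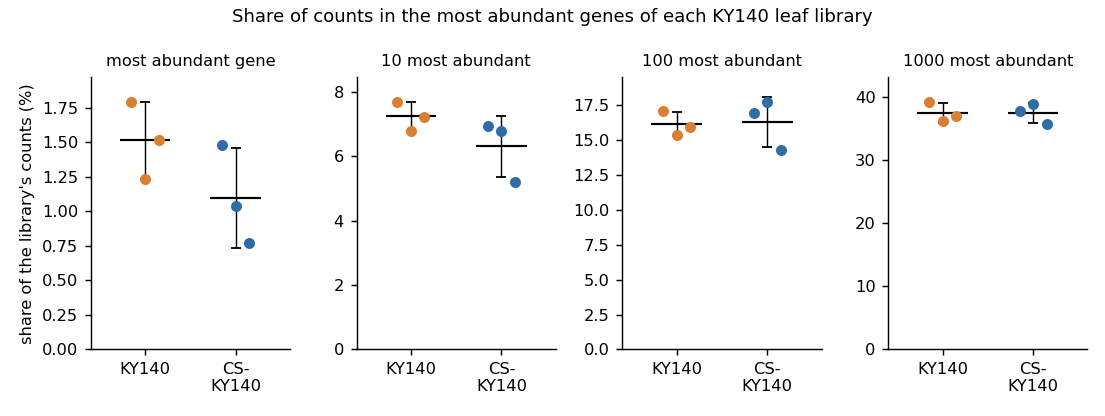
Share of each library's counts (percent, y axis from 0) held by its 1, 10, 100 and 1000 most abundant genes; points are the 3 libraries of KY140 (25°C) and of CS-KY140 (−4°C), lines the means and bars the SD. The 2 groups overlap in every panel, and CS-KY140 replicate 3 holds the lowest cold value in each.

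This concentration was higher in the KY140 libraries than in those of the other cultivars at both temperatures, a full separation for which 3 libraries against 3 give no p below 0.1. Untreated Atlantic libraries had 10.04 to 10.9% of their counts in their top 100 genes and the cold ones 8.86 to 9.82%. For KY130 this was 10.01 to 12.2% untreated and 12.4 to 13.3% cold, and no library of either cultivar reached the lowest KY140 library. How the reads of each cultivar divide between the chromosome copies of the identifiers was not tested. The mean cold change was 0.190 points in KY140, −1.19 points in Atlantic and 1.97 points in KY130. The difference of the changes was 1.38 points against Atlantic (exact permutation of cultivar labels over 400 arrangements, p = 0.695) and −1.78 points against KY130 (exact permutation p = 0.585). These permutations also carry the difference in level between the cultivars, which widens the range of permuted values, so they say little about how alike the changes were.

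Although the total was similar, the genes that made it up were partly exchanged. Of the 100 genes with the highest mean share at each temperature, 66 were common to both lists and 34 were found in only the untreated or only the cold list. The 34 genes of the cold list alone held 0.667%, 0.869% and 0.756% of the counts untreated and 3.89%, 4.64% and 3.73% cold. The 34 genes of the untreated list alone held 2.67%, 2.06% and 2.41% untreated and 1.43%, 1.35% and 1.08% cold. The lists were chosen by these shares, so the separation is a description. For single libraries, 70 to 77 of the top 100 genes were shared between 2 untreated libraries, 75 to 82 between 2 cold libraries, and 54 to 67 between an untreated and a cold library.

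The same exchange was seen over the whole profile. The percentage of counts that would have to be moved to other genes to turn one library into another was 18.2 to 26.2% among untreated libraries and 19.2 to 20.7% among cold libraries. Between an untreated and a cold library it was 21.4 to 37.9%. The ranges overlap through KY140 replicate 1, whose pairs with KY140 replicates 2 and 3 gave 26.2% and 24.35%. KY140 replicates 2 and 3 differed by 18.2%, and each of them from the cold libraries by 21.4 to 31.1%. Setting replicate 1 aside in this way was done after the values were seen. KY140 replicate 1 stood apart: 45305 genes had at least 1 count there, against 65787 and 53368 in replicates 2 and 3 and 62388 to 69917 in the cold libraries. In it, 5615 genes were at 0 that had at least 10 counts in both other untreated libraries, against 175 and 1381 such genes in KY140 replicates 2 and 3, and 411 to 1514 in the cold libraries. Thinning every library to the smallest total left 45033 genes in KY140 replicate 1 and 53327 to 69103 in the others.

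**Figure D2:**
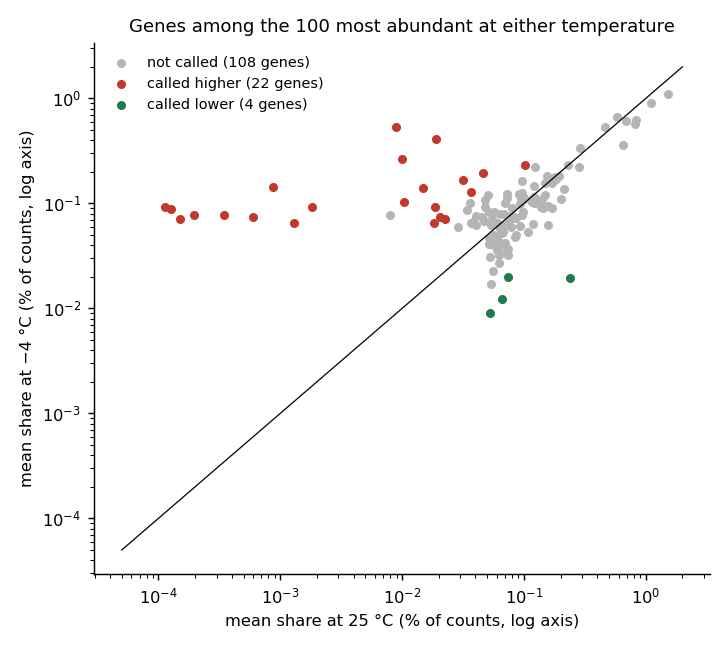
Mean share of counts at 25°C (x axis) against −4°C (y axis), percent on log axes, for the 134 genes among the 100 most abundant at either temperature; the line marks equal shares and colours the edgeR call. The 22 genes called higher lie above the line, some from shares near 0.0001%, and 4 genes called lower lie below it.

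Over all genes, 501 of 47973 tested genes were called by edgeR's quasi-likelihood test at a Benjamini-Hochberg adjusted p under 0.05 and a |log2FC| of at least 1, which is 1.04% of the genes tested. Of these, 425 were higher (0.886%) and 76 lower (0.158%), and 5135 genes had an unadjusted p under 0.05. The genes called higher together held 0.883%, 0.993% and 1.05% of the counts in the untreated libraries and 7.66%, 7.79% and 7.51% in the cold libraries. The genes called lower went from 1.33%, 1.12% and 1.38% to 0.232%, 0.210% and 0.170%. As the call rests on the same contrast, these sums measure the size of the exchange and are no test. The called-higher genes gained 6.68 points of a total of 23.3 points gained by all genes whose mean share rose, or 28.7%. That total also counts the spread between libraries of the same group, so the 28.7% is not a part of a tested cold change. The number of calls depended on single libraries. Omitting 1 untreated library (replicate 1, 2 or 3 of KY140) changed it to 687, 203 or 141, and omitting 1 cold library (replicate 1, 2 or 3 of CS-KY140) to 107, 389 or 204. In every one of these fits 79 genes were called, 71 higher and 8 lower. The study reports a larger number of changed genes for this contrast at the same thresholds, with more of them higher than lower. Its methods do not name the test behind those calls. On the same 6 libraries DESeq2 called 2273 genes, 1803 higher and 470 lower. Why the counts of called genes differ was not tested.

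Abundant genes were called most often. The tested genes were divided by mean expression over all 6 libraries into 10 classes of equal size. The cold libraries are part of that mean, so a gene that rose strongly could reach a higher class through its rise. In the highest class, from 41.2 CPM (library-scaled counts after TMM normalization) upward, 5.27% were called, 212 higher and 41 lower. In the 3 lowest classes, below 2.87 CPM, none of the genes was called. The smallest called rise was a log2FC of 1.29 in the highest class and 7.48 in class 4 counted from the lowest.

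The largest gain belonged to Soltu.Atl.03_3G000950. It had 958, 1052 and 1168 counts in the untreated libraries and 64054, 103152 and 53911 in the cold libraries, and every cold library lay far above every untreated one. Its mean share rose from 0.00884% to 0.532%, and its rank among all genes from 1835 to 7. The log2FC was 6.02 (standard error 0.33, adjusted p = 0.000653 by edgeR), and the gene was called in each fit that left out 1 library. Soltu.Atl.07_3G011210 followed, with 1966, 2499 and 2322 counts untreated and 53785, 79682 and 38277 cold. Its share rose from 0.0189% to 0.414%, from rank 595 to rank 9 (log2FC 4.56, standard error 0.33, adjusted p = 0.00122 by edgeR). The gene Soltu.Atl.03_3G029020 rose from 1439, 1184 and 1006 counts to 30868, 52988 and 26503 (log2FC 4.82, standard error 0.34, adjusted p = 0.00122 by edgeR) and reached rank 12. These 3 genes together gained 1.17 points of share, and CS-KY140 replicate 2 had the highest count of each.

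In all, 29 genes gained at least 0.05 points with no overlap between the temperatures, and 22 of them were called higher. For comparison, 11.7% of all tested genes had higher shares in every cold library than in every untreated one, and 9.68% had lower shares. The genes named from here to the end of the paragraph were chosen after their values were seen. Soltu.Atl.07_0G010630 gained 0.149 points (log2FC 2.19, adjusted p = 0.012), a call lost without KY140 replicate 2 (adjusted p = 0.0776), KY140 replicate 3 (0.0731) or CS-KY140 replicate 1 (0.0707). Soltu.Atl.S098640, which is placed on no chromosome, had 1882, 1707 and 1789 counts untreated and 20706, 22353 and 15005 cold (log2FC 3.35, adjusted p = 0.00122 by edgeR). Its untreated libraries lay close together, and it was called in each fit that left out 1 library. Soltu.Atl.10_1G002060 rose from 4213, 3398 and 3785 counts to 24231, 28771 and 15245 (log2FC 2.49, adjusted p = 0.00572 by edgeR; 0.0564 without KY140 replicate 3). Soltu.Atl.12_2G020630 was already at rank 38 untreated and reached rank 14, with a log2FC of 1.29 and an adjusted p of 0.0487, and its call was lost in 10 of 15 other settings.

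**Figure D3:**
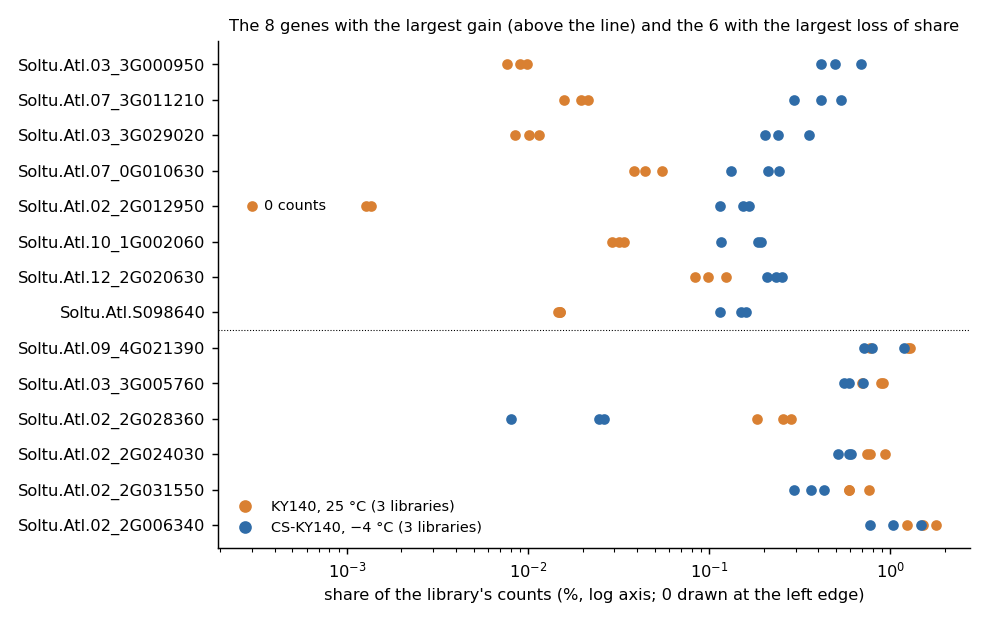
Share of counts per library (percent, log axis) for the 8 genes with the largest gain in mean share, above the dotted line, and the 6 with the largest loss, below it; orange points are KY140 (25°C), blue points CS-KY140 (−4°C), and a point at the left edge is a library with 0 counts. The gainers separate fully, while 3 of the 6 losers overlap.

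Of the 6 largest losses, 5 were of genes that ranked among the 10 most abundant at both temperatures. Among genes whose shares did not overlap between the temperatures, Soltu.Atl.02_2G031550 lost the most, from 94982, 68931 and 70193 counts to 55997, 54502 and 38141. Its mean share was 0.648% untreated and 0.363% cold, at ranks 6 and 10 (log2FC −0.74, standard error 0.26, adjusted p = 0.311 by edgeR). Next came Soltu.Atl.02_2G024030, which had 116507, 86913 and 91777 counts untreated and 78379, 88887 and 67383 cold. These counts overlapped, while its shares did not, at 0.935%, 0.742% and 0.774% untreated and 0.605%, 0.594% and 0.517% cold, at ranks 4 and 6 (log2FC −0.42, standard error 0.24, adjusted p = 0.64 by edgeR). Neither passed the test. Of 12 genes that lost at least 0.05 points without overlap, 3 were called lower. The exception among the largest losses, named after its values were seen, was Soltu.Atl.02_2G028360. It fell from 35322, 21380 and 30462 counts to 3381, 3670 and 1043, and from rank 11 to rank 545 (log2FC −3.53, standard error 0.46, adjusted p = 0.0095 by edgeR). Its call was lost without KY140 replicate 3 (adjusted p = 0.0531) or CS-KY140 replicate 1 (adjusted p = 0.0532).

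The 10 largest gains added up to 2.05 points and the 100 largest to 5.76 points. The 10 largest losses came to 1.94 points and the 100 largest to 4.46 points. Of the 10 largest gains 9 were called higher, and of the 10 largest losses 1 was called lower. The fixed list of the 100 genes with the highest mean share over the 6 libraries held 16.1%, 14.7% and 15.3% untreated and 16.4%, 17.0% and 13.4% cold (exact permutation p = 0.9). Within it 11 genes were called higher and 1 lower, beside 425 and 76 of 47973 over all. A higher mean share in the cold was found for 45 of the 100, near the 23344 of 47973 over all genes, with a median log2FC of 0.00 against 0.07 over all tested genes. Shares at both temperatures chose this list, so a gene that rose could enter it through its cold counts. Its calls are therefore a description. Of the 100 highest untreated genes, 1 was called higher and 4 lower, and of the 100 highest cold genes 22 and 0.

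Among the genes called in every fit that left out 1 library, Soltu.Atl.03_3G000950 and Soltu.Atl.03_3G029020 had the smallest p of those that rose. Soltu.Atl.04_1G002360 and Soltu.Atl.03_3G015580 had the smallest p of those that fell. Soltu.Atl.04_1G002360 had 1838, 1251 and 1508 counts untreated and 164, 149 and 124 cold (log2FC −3.47, standard error 0.32, adjusted p = 0.00222 by edgeR). The counts of Soltu.Atl.03_3G015580 were 3264, 1973 and 2357 untreated and 80, 197 and 160 cold (log2FC −4.22, standard error 0.40, adjusted p = 0.00249 by edgeR). Every cold library lay far below every untreated one for both genes.

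Some of the genes that rose had neighbouring identifier numbers. Numbers run in steps of 10 along a chromosome copy, and called genes at most 10 steps apart were joined into runs, a description made after the calls were known. Of 395 called-higher genes with a place on a chromosome, 94 lay in runs of at least 2 and 42 in 9 runs of at least 3. Of 69 placed genes called lower, 6 lay in runs of 2 and 0 in longer ones. With fewer genes called lower, fewer runs can form, and the number of runs expected from the count of calls was not computed. The 2 directions are therefore not compared. The longest run spans Soltu.Atl.02_2G012860 to Soltu.Atl.02_2G012950, where 9 of 10 tested genes were called higher. Another run, Soltu.Atl.02_4G012000 to Soltu.Atl.02_4G012080, had 8 of 9, and a shorter one, Soltu.Atl.02_3G013110 to Soltu.Atl.02_3G013160, had 5 of 6, so runs with similar numbers occurred on copies 2, 4 and 3 of chromosome 2.

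These 22 genes on chromosome 2 were close to silent at 25°C. Their highest count in any untreated library was 161 and their lowest in any cold library 441. The run of 9 genes summed to 14, 303 and 252 counts untreated and 73023, 96505 and 51789 cold, which was 0.564%, 0.645% and 0.397% of the cold libraries. Soltu.Atl.02_2G012860 had 0, 18 and 22 counts untreated and 10077, 20151 and 8500 cold (log2FC 9.79, standard error 0.98, adjusted p = 0.00325 by edgeR). The member with the largest gain of share, Soltu.Atl.02_2G012950, had 0, 149 and 161 counts untreated and 21361, 23064 and 14937 cold (log2FC 7.49, standard error 1.26, adjusted p = 0.0288 by edgeR). The adjusted p of Soltu.Atl.02_2G012950 was between 0.0577 and 0.129 when any 1 library other than KY140 replicate 1 was left out. KY140 replicate 1 had 0 counts for 16 of the 22 genes, against 5 and 11 in KY140 replicates 2 and 3, and without it all 22 were still called. With limma voom, whose quality weights gave KY140 replicate 1 a weight of 0.243, 9 of the 22 were called. Soltu.Atl.02_2G012900 had 0 counts in every untreated library and 1163, 1305 and 723 in the cold. It was at least 332-fold higher, with a floor of 3 counts in each untreated library.

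The genes beside the run did not all move with it, as a few examples chosen after their values were seen show. Of the genes in the chromosome 2 range of the runs but outside them, 3 were called higher and 2 lower. Soltu.Atl.02_2G012730, with 0, 39 and 30 counts untreated and 8508, 16491 and 7249 cold, was called higher (log2FC 8.74, adjusted p = 0.00705 by edgeR; 0.0575 without KY140 replicate 3). Soltu.Atl.02_2G012740, with 0, 5 and 0 counts untreated and 637, 1070 and 586 cold, was also called higher (adjusted p = 0.00503 by edgeR). By contrast, Soltu.Atl.02_2G012760, which lies between it and the run by number, fell from 11009, 6981 and 5992 counts to 1698, 1490 and 1852 (log2FC −2.32, standard error 0.31, adjusted p = 0.0105 by edgeR). It lost its call without CS-KY140 replicate 1 (adjusted p = 0.0784). On copy 3, Soltu.Atl.02_3G012990 fell from 1272, 424 and 756 counts to 100, 54 and 131 (log2FC −3.15, adjusted p = 0.0294 by edgeR), beside the run that rose there. The call of Soltu.Atl.02_3G012990 was lost without KY140 replicate 3 (adjusted p = 0.102) or without CS-KY140 replicate 1, 2 or 3 (adjusted p = 0.159, 0.0774 and 0.0726).

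Another group of runs lay at the low-numbered end of chromosome 3. Soltu.Atl.03_3G000950, the largest gainer, belongs to it. With Soltu.Atl.03_3G000960 and Soltu.Atl.03_3G001030 it formed a run of 3 called genes that held 0.00963%, 0.0105% and 0.0118% of the counts untreated and 0.615%, 0.866% and 0.503% cold. Soltu.Atl.03_3G000960 had 97, 26 and 5 counts untreated and 9398, 15985 and 7056 cold (log2FC 7.88, standard error 0.95, adjusted p = 0.00705 by edgeR; 0.0605 without KY140 replicate 2). On copy 4 the run Soltu.Atl.03_4G000830 to Soltu.Atl.03_4G000920 held 5 called genes of 7 tested, summing to 135, 121 and 100 counts untreated and 15628, 20050 and 9467 cold. On copy 1 the run Soltu.Atl.03_1G000710 to Soltu.Atl.03_1G000800 held 3 of 3 tested, with 0, 7 and 0 counts against 1074, 1666 and 888. Of the 29 genes that gained at least 0.05 points, 6 had identifier numbers in the chromosome 2 range of the runs and 3 in the chromosome 3 range. In these ranges 174 and 40 genes were tested, 25 and 11 were called higher, and 2 and 0 were called lower. The ranges were set by runs of called genes, so the 6 and 3 are a description.

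**Figure D4:**
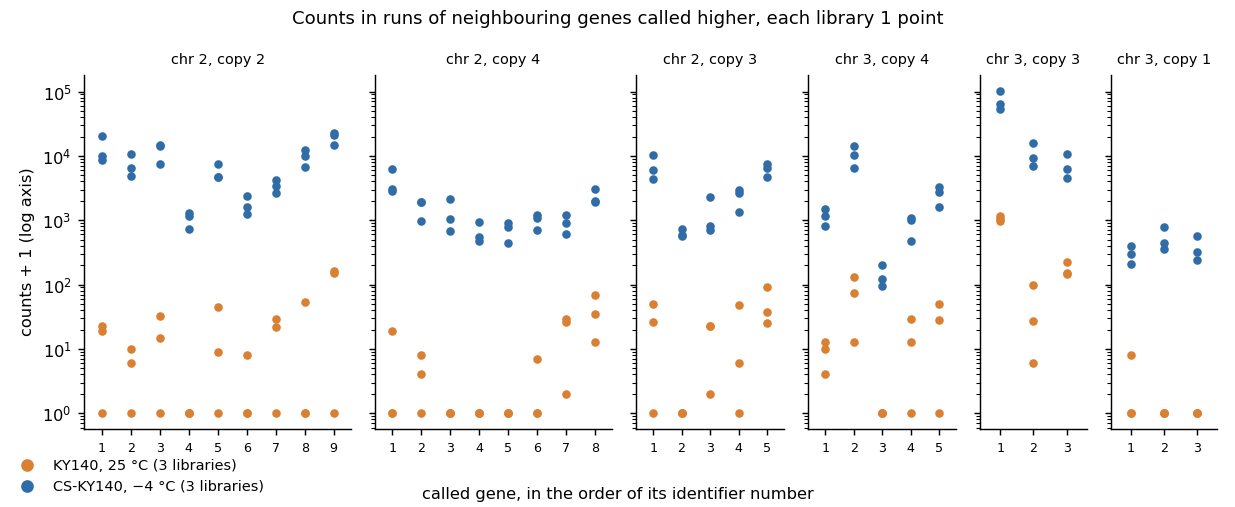
Counts plus 1 (log axis) of each called-higher gene in 6 runs on chromosomes 2 and 3, ordered by identifier number, with 1 point for each library; orange points are KY140 (25°C) and blue points CS-KY140 (−4°C), and a value of 1 on the axis is a count of 0. All cold points lie above all untreated points of the same gene.

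The same identifiers were high in the cold in the other cultivars too. The 25 called-higher genes in the chromosome 2 range held 0.0018 to 0.00466% of the counts in KY140 and 0.621 to 1.04% in CS-KY140. They held 0.00516 to 0.00855% in Atlantic and 0.212 to 0.33% in CS-Atlantic, and 0.00185 to 0.00445% in KY130 and 0.403 to 0.498% in CS-KY130. The 11 called-higher genes in the chromosome 3 range held 0.0107 to 0.0126% in KY140 and 0.582 to 1.01% in CS-KY140, against 0.00364 to 0.00406% in Atlantic and 0.107 to 0.13% in CS-Atlantic, and 0.00100 to 0.00177% in KY130 and 0.139 to 0.189% in CS-KY130. The genes were chosen by their rise in KY140, and the reads of other cultivars may fall on other copies, so the difference between cultivars was not tested.

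Calls were also counted by chromosome, copy digit and kind of identifier. The chromosome values include the genes in runs. The share of tested genes called higher was 0.424% on chromosome 1, 1.21% on chromosome 2, 1.46% on chromosome 3, 1.11% on chromosome 7, 1.30% on chromosome 10 and 0.454% on chromosome 11, and between 0.547% and 1.03% on the others, beside 0.886% over all genes, and neighbouring genes are not independent of each other. By copy digit, from 0 to 4, it was between 0.803% and 0.995%. Of 2781 tested genes that carry only a number in place of a chromosome identifier, 12 were called higher and 6 lower. All such numbered genes, tested or not, held 3.52%, 2.79% and 3.68% of the counts untreated and 3.02%, 2.51% and 2.62% cold, with overlap (exact permutation p = 0.2). Of the 425 genes called higher, 63 had 0 counts in all untreated libraries. These 63 passed the low count filter through their cold counts alone, so their number and fold are a description. KY140 replicates 1, 2 and 3 had 0 counts for 145, 75 and 120 of the called-higher genes. Fewer genes were detected in replicate 1 than in any other of the 6 libraries. The 63 genes were at least 26.6-fold to at least 394-fold higher at a floor of 3 counts in each untreated library. Together they held 0.144%, 0.101% and 0.210% of the cold libraries, a small part of the gain. No gene called lower was at 0 in all cold libraries.

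The 12 genes that the study names belong to the phenylpropanoid, oxylipin and GABA pathways, and took little of the exchanged share. Phenylpropanoid enzymes turn phenylalanine into precursors of lignin and flavonoids, lipoxygenases and their partners make jasmonate, and glutamate decarboxylase makes GABA, an amino acid that accumulates under stress in many plants. Together the 12 genes held 0.0501%, 0.0709% and 0.0911% of the counts untreated and 0.0726%, 0.0628% and 0.136% cold, with overlap. This sum joins opposite directions. StCSE alone held 0.03139%, 0.04681% and 0.06955% untreated and 0.01568%, 0.01231% and 0.01619% cold, while the other 11 lay higher in the cold. Of the 12, 11 lay higher and 1 lower in every cold library than in every untreated one, and 2 were called higher and 0 lower, beside 11.7% and 9.68% of all tested genes that lay higher or lower and 0.886% and 0.158% that were called. The study chose them on these samples, so these counts are not independent evidence of their direction. It reports each of them as changed by cold in KY140, with StCSE lower and the others higher. The median log2FC was 1.85, against 0.07 over all tested genes. DESeq2 called all 12, 11 higher and 1 lower, and 2273 of 46848 genes over all.

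In the oxylipin pathway, StLOX2S (Soltu.Atl.03_0G008370), a lipoxygenase that oxidises polyunsaturated fatty acids, rose from near silence. It had 4, 9 and 35 counts untreated and 611, 374 and 908 cold, and all cold libraries were higher by far (log2FC 5.24, standard error 0.81, adjusted p = 0.0201 by edgeR). The adjusted p was 0.0976 without KY140 replicate 2, 0.0974 without CS-KY140 replicate 1 and 0.0832 without CS-KY140 replicate 3, and 0.168 with limma voom on all 6 libraries. StLOX1_5 (Soltu.Atl.01_4G023960), another lipoxygenase, had 166, 302 and 44 counts untreated and 480, 459 and 1396 cold (log2FC 2.13, standard error 0.71, adjusted p = 0.267 by edgeR). StAOC (Soltu.Atl.02_2G023780), the allene oxide cyclase that closes the jasmonate ring, had 523, 368 and 547 counts untreated and 1118, 985 and 3408 cold (log2FC 1.89, standard error 0.50, adjusted p = 0.152 by edgeR). CS-KY140 replicate 3 stood well above the other cold libraries for both of these genes.

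The OPCL1 genes encode ligases that activate a jasmonate precursor for beta-oxidation. StOPCL1 Soltu.Atl.12_2G005410 had 256, 276 and 355 counts untreated and 767, 1109 and 1396 cold and was called higher (log2FC 1.80, standard error 0.34, adjusted p = 0.0438 by edgeR). The call was lost in 11 of 15 other settings, among them each fit without 1 library (adjusted p between 0.0692 and 0.196). The other StOPCL1 gene, Soltu.Atl.12_3G004550, had 430, 456 and 365 counts untreated and 968, 1349 and 1857 cold (log2FC 1.66, standard error 0.33, adjusted p = 0.0544 by edgeR). StGAD (Soltu.Atl.11_3G000340), a glutamate decarboxylase, had 342, 411 and 361 counts untreated and 712, 829 and 1209 cold (log2FC 1.23, standard error 0.33, adjusted p = 0.147 by edgeR). Its 3 untreated libraries were close to each other.

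For the phenylpropanoid genes the cold libraries were again ordered with replicate 3 at the top. StPAL (Soltu.Atl.09_2G005110), which opens the pathway, had 83, 167 and 115 counts untreated and 327, 410 and 622 cold. The 3 StCYP73A genes, cinnamate hydroxylases of the next step, had 112, 83 and 47 counts against 167, 260 and 708 (Soltu.Atl.06_4G021440), 71, 107 and 133 against 306, 280 and 624 (Soltu.Atl.06_4G021450), and 122, 445 and 453 against 759, 975 and 1802 (Soltu.Atl.06_1G015640). St4CL (Soltu.Atl.03_3G030960), which activates the resulting acids with coenzyme A, had 216, 201 and 103 counts untreated and 1161, 526 and 1720 cold. It came closest to the threshold of the genes that lay higher and were not called (adjusted p = 0.0507 by edgeR), and was called without CS-KY140 replicate 2 (log2FC 3.07, adjusted p = 0.0212) and not without any other library (adjusted p between 0.0624 and 0.213). StCSE (Soltu.Atl.04_4G005370), an esterase of lignin synthesis and the most abundant of the 12 at 25°C, had 3913, 5482 and 8247 counts untreated and 2031, 1843 and 2111 cold. Its adjusted p was 0.0513 by edgeR, 0.0165 without KY140 replicate 1 and between 0.127 and 0.227 without any other library. Of 15 other settings, 7 called StCSE lower, among them limma voom on all 6 libraries (adjusted p = 0.00788), and 8 did not.

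**Figure D5:**
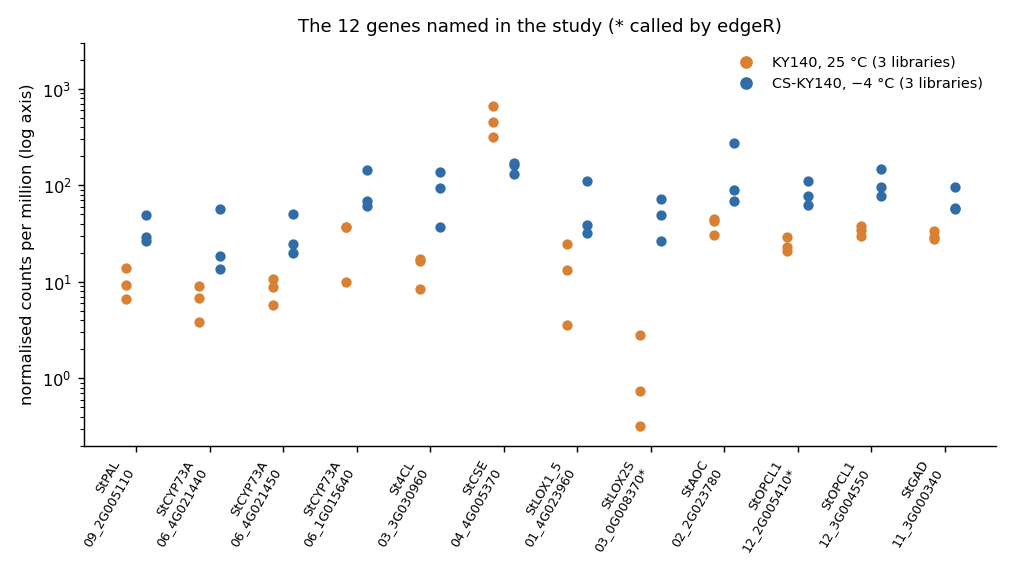
Normalised CPM (log axis) of the 12 genes named in the study, with 1 point per library; orange points are KY140 (25°C), blue points CS-KY140 (−4°C), and an asterisk marks the 2 genes called by edgeR. Cold points lie above untreated points for 11 genes and below them for StCSE.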

How the data were processed

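Leaves of 3 potato cultivars at 2 temperatures were sequenced as poly(A), strand-specific libraries. The authors deposited raw counts per gene for 114281 genes in 18 libraries, without normalization. For aligner, counter and genome build: not given in the sources used here. The 6 KY140 libraries were analysed with edgeR 4.0.16 in R 4.3.3: filterByExpr (minimum count 10), TMM, and the quasi-likelihood test of cold against untreated, called at a Benjamini-Hochberg FDR under 0.05 and |log2FC| of at least 1, the study's criteria. Standard errors were taken from the log2FC and its F statistic. Shares are counts over the library total. Named genes were the study's 12, the most abundant gene, the 2 largest separated gains and losses of share, and the 2 genes in each direction with the smallest p among those called in every fit without 1 library. Others are said to be chosen after their values were seen. Members and lists were chosen with earlier results of these data known. Tests were tested on simulated data. Alternatives were DESeq2 1.42.0, limma 3.58.1 (voom with quality weights), other scalings, filters and rankings, a replicate block and leaving out libraries. A runs distance of 5 or 20 steps was added after seeing the data. The same-numbered libraries of the 2 groups were not taken as pairs, and no sequencing batch is given.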

Additional observations from a re-analysis of the deposited data

How the results depend on the processing

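The direction of each gene given with its own log2FC held in all 15 other settings, and none reversed. The count of 501 called genes was 2273 with DESeq2 (1803 higher, 470 lower), 2339 with no low count filter (1912 higher, 427 lower) and 271 with limma voom and quality weights (168 higher, 103 lower), where the share of higher calls was 62.0% against 84.8% and KY140 replicate 1 had a weight of 0.243. Without 1 library it ranged from 107 to 687 in all, from 94 to 590 for higher and from 13 to 97 for lower genes. With the replicate number as a block, 317 genes were called, 270 higher and 47 lower. The deviations of same-numbered libraries correlated at 0.0956, 0.0645 and 0.00755, and not every library correlated best with its own number. The 253 calls in the highest expression class became 621 with DESeq2, 692 with no filter and 78 to 247 without 1 library. Scaling by library totals moved the median log2FC of all genes from 0.07 to −0.03. Of the 42 called genes in runs, 21 were called by limma and 24 to 41 without 1 library. Joining runs over 5 or 20 steps gave 33 or 57 called-higher genes, and 0 or 3 called-lower genes, in runs of at least 3. The change in share of the 100 highest genes was −2.62 points when they were chosen on the untreated libraries alone and 1.79 points on the cold alone, because the choice favours its own group. The changes in share of the top genes otherwise moved by less than 1 SD, pooled over both groups. Without 1 library the change for the top 100 ranged from −0.525 to 1.19 points, so its sign turned. With 1 library left out, the change in the share of the 10 most abundant genes was −0.38 to −1.25 points. Leaving out a library moved 29 gaining genes to between 26 and 33. DESeq2 called all 12 genes of the study, 11 higher and 1 lower, where edgeR called 2. The cause of these moves was not tested.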
